A study of Mus musculus with 4 samples.

Results

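Genes of the class I pathway, 10 in number, were followed in laser-captured Paneth cells of the mouse small intestine, after the gut had been colonized and in the germ-free state. They were H2-K1, H2-D1, B2m, Tap1, Tap2, Tapbp, Nlrc5, Psmb8, Psmb9 and Psmb10, that is 10 of the 18195 genes that have a probe set of their own on the array. Members were found by name: every probe set whose platform annotation names 1 of these genes alone was taken, and the probe set with the highest mean signal stands first for its gene. This gave 27 probe sets, from 1 to 9 per gene, and 3 more that name a member together with other genes are reported apart.

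The conventionalized mice were male NMRI mice of 8 weeks that had lived germ-free and then carried, for 10 days, the intestinal microbes of a conventionally raised mouse. The germ-free mice were males of the same outbred stock and age that met no microbes. Each group is a single pool of RNA from 3 mice, taken through amplification in 2 separate 10 ng portions, with 1 Affymetrix mouse array per portion and 4 arrays in all. The p-values therefore weigh the difference between 2 pools against amplification and array error only, and the spread between mice is not measured.

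Major histocompatibility complex class I molecules show fragments of a cell's own proteins on its surface, where CD8 T cells and natural killer cells read them. The fragments are cut by the proteasome, pumped into the endoplasmic reticulum by the transporter TAP, and loaded with the help of tapasin onto a heavy chain paired with beta-2-microglobulin. Interferon is known to bring in the immunoproteasome, in which 3 catalytic subunits (Psmb9, Psmb10 and Psmb8) replace the constitutive ones (Psmb6, Psmb7 and Psmb5) and change which fragments are made. The class I genes are switched on together by the transactivator Nlrc5, and the gut epithelium is a tissue where interferon from neighbouring lymphocytes is known to raise them.

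The capture was checked against markers. Of 20 Paneth cell markers listed, 10 had a probe set of their own, and their summed signal was 290172 and 650419 on the conventionalized arrays and 70575 and 152724 on the germ-free arrays, high on all 4. Markers of neighbouring cells were present too: 18 enterocyte markers summed to 125871 and 281065 on the conventionalized arrays and 113365 and 204259 on the germ-free arrays, and 10 goblet cell markers to 140476 and 229690 on the conventionalized arrays and 54313 and 97869 on the germ-free arrays. Such sums lean on the brightest genes. The brightest enterocyte marker, Fabp2, read 51528 and 142558 on the conventionalized arrays and 20981 and 45252 on the germ-free arrays. By contrast, 14 of the 18 enterocyte markers had a log2 difference, conventionalized minus germ-free, below 0. Duplicate arrays differed with a standard deviation of 1.05 (conventionalized) and 0.83 (germ-free) on the log2 scale over the 22491 probe sets tested, and the conventionalized arrays were washed on another fluidics station than the germ-free arrays, which leaves the effect of the station and that of the group mixed: they cannot be told apart. A probe set was tested where its mean signal over the 4 arrays exceeded 113.9, the median of all, and differences are given as conventionalized minus germ-free on the scale log2(signal + 32), on which changes of dim probe sets come out too small. In bulk material of this kind, more cells of a type and more RNA per cell cannot be told apart.

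Taking each gene by its brightest probe set, the immunoproteasome subunits, Tap1 and Nlrc5 read higher in conventionalized than in germ-free cells, by a log2 of 0.64 to 1.00, while H2-K1, H2-D1, B2m and Tapbp lay between -0.48 and -0.0099. Of these 9 values 0 passed the limma test over all probe sets, and 1, that of Tap1, had an unadjusted p under 0.05. Of the 20 member probe sets tested, 1 passed, the second probe set of Psmb8, which rose 3.49-fold. That is 1 of 20 beside 0.333% of all 22491 probe sets called (0.12% higher and 0.213% lower in conventionalized cells), and 2 of 20 had an unadjusted limma p under 0.05, beside 5.13% of all. For 5 of the 9 genes tested both conventionalized arrays lay above both germ-free arrays, beside 15.9% of all genes tested, and for 1 gene, H2-D1, both lay below, beside 16.1%. The median over the 9 genes, which lay on both sides of 0, was 0.64, the value of Nlrc5, beside 0.000216 over all 12111 genes tested. It was 0.43 without germ-free replicate 2, 0.38 among the brightest 25% of probe sets and 0.32 without a filter on low signals, where Tap2 entered.

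**Figure D1:**
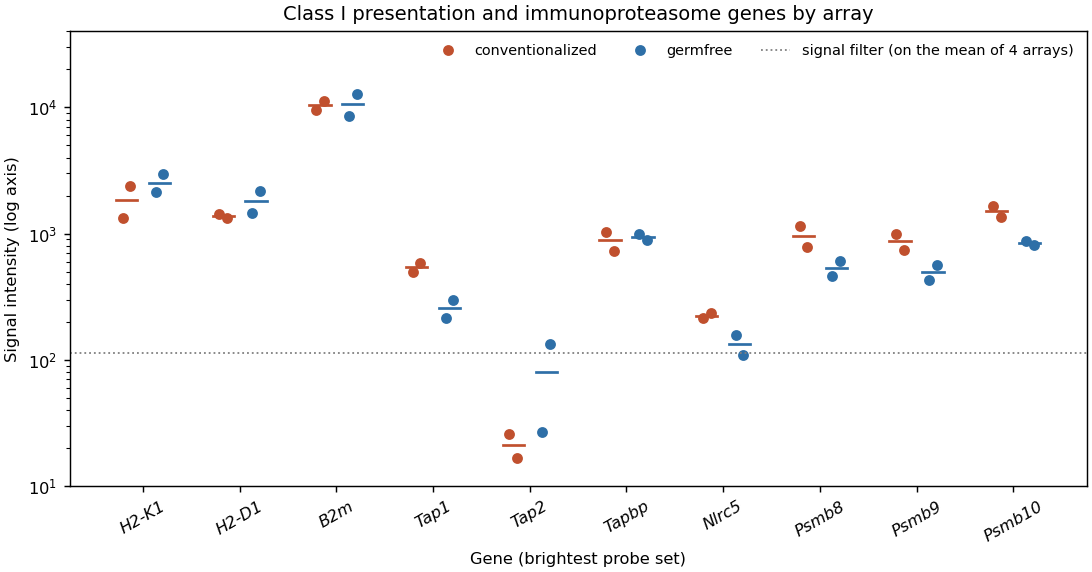
Signal of each array (points, log axis) at the brightest probe set of the 10 member genes, with the group mean as a bar, for 2 conventionalized arrays (left of each pair) and 2 germ-free arrays (right). The points of the groups separate upwards for Tap1, Nlrc5, Psmb8, Psmb9 and Psmb10, and B2m is the brightest, between 8515 and 12643 on all arrays, with overlapping groups.

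The immunoproteasome subunits come first, as the step that cuts the fragments. Psmb8 (gene identifier 16913), the inducible subunit with chymotrypsin-like activity, read 1145 and 783 at its brightest probe set on the conventionalized arrays, against 465 and 611 on the germ-free arrays. The groups did not overlap, and the difference was 0.79 ± 0.43 on the log2 scale (limma SE, 2 arrays per group; adjusted p = 0.999). Its second probe set read 948 and 1084 on the conventionalized arrays and 159.9 and 437 on the germ-free arrays. Here both conventionalized arrays lay close together and the germ-free arrays lay apart by a log2 of 1.29. The difference was 1.80 ± 0.46 and was called (limma adjusted p = 0.0288). The call was lost, at a limma adjusted p of 0.054, 0.323 and 0.999, without conventionalized replicate 1, conventionalized replicate 2 and germ-free replicate 1, and the difference itself was 1.90, 1.71 and 1.16 there. It held without germ-free replicate 2, at 2.45 and a limma adjusted p of 0.031. It was also lost with quantile normalization, median centring and no variance trend, at limma adjusted p-values of 0.273, 0.316 and 1. The 2 probe sets of Psmb8 thus pointed the same way and differed in size. The brightest carries the suffix _x_at, which marks probes that can bind related transcripts, and the second does not.

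Psmb9 (16912), the inducible subunit that takes the place of Psmb6, had 1 probe set. It gave signals of 987 and 747 in conventionalized cells, against 427 and 566.7 in germ-free cells. Both conventionalized values were the higher ones, by a log2 of 0.77 ± 0.44 or 1.70-fold, and the test was not passed (limma adjusted p = 0.999). Psmb10 (19171), which takes the place of Psmb7, had 1651 and 1354 in conventionalized cells and 878 and 811.5 in germ-free cells. Its duplicates lay 0.28 (conventionalized) and 0.11 (germ-free) apart on the log2 scale, the groups did not overlap, and its difference was 0.80 ± 0.42 or 1.74-fold (limma adjusted p = 0.989). Differences of about 0.8 were thus seen at the brightest probe set of all 3 inducible subunits, each with a standard error of 0.42 to 0.44, a value borrowed from probe sets of similar signal.

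The constitutive counterparts gave no common direction. Psmb5, which Psmb8 replaces, read 1565 and 2279.9 in conventionalized cells, against 942 and 1159 in germ-free cells, a log2 difference of 0.84 ± 0.42 (limma adjusted p = 0.953). Psmb6 read 3885 and 2577.5 in conventionalized cells and 2838 and 4138 in germ-free cells, and the groups overlapped around a difference of -0.11 ± 0.45. Psmb7 was dim, at 90.9 and 44.0 in conventionalized cells, against 207 and 329 in germ-free cells, and both conventionalized values lay below both germ-free ones, by -1.60 ± 0.84 (limma adjusted p = 0.992). Its mean of 67.5 in conventionalized cells lay under the filter of 113.9, which Psmb7 passed only through its germ-free mean of 268, so its value and the lack of overlap support nothing. Of these 3, 0 passed the limma test and 1 had an unadjusted p under 0.05. Their median was -0.11; it was 0.18 with conventionalized replicate 2 left out, 0.16 with germ-free replicate 2 left out, and 0.36 among the brightest 25% of probe sets, where Psmb7 dropped out.

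Within each array, the log2 ratio of an inducible subunit to its constitutive counterpart shows unequal change of the pair. For Psmb9 over Psmb6 the ratio, centred on the mean of the 4 arrays, was 0.34 and 0.54 on the conventionalized arrays, against -0.36 and -0.52 on the germ-free arrays, a difference of 0.88. For Psmb10 over Psmb7 it was 1.00 and 1.41 on the conventionalized arrays and -0.85 and -1.56 on the germ-free arrays, a difference of 2.41. Most of it came from Psmb7, whose conventionalized signals lay under the filter, so this separation is printed as a value only. For Psmb8 over Psmb5 the brightest probe set of Psmb8 gave 0.51 and -0.55 on the conventionalized arrays, against -0.019 and 0.061 on the germ-free arrays, with overlapping groups and a difference of -0.042. With the second probe set of Psmb8 it was 0.66 and 0.31 in conventionalized cells, against -0.98 and 0.015 in germ-free cells, a difference of 0.97 without overlap. These ratios are descriptions: 2 arrays against 2 cannot go below p = 0.333 in an exact permutation test, so none was made.

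**Figure D2:**
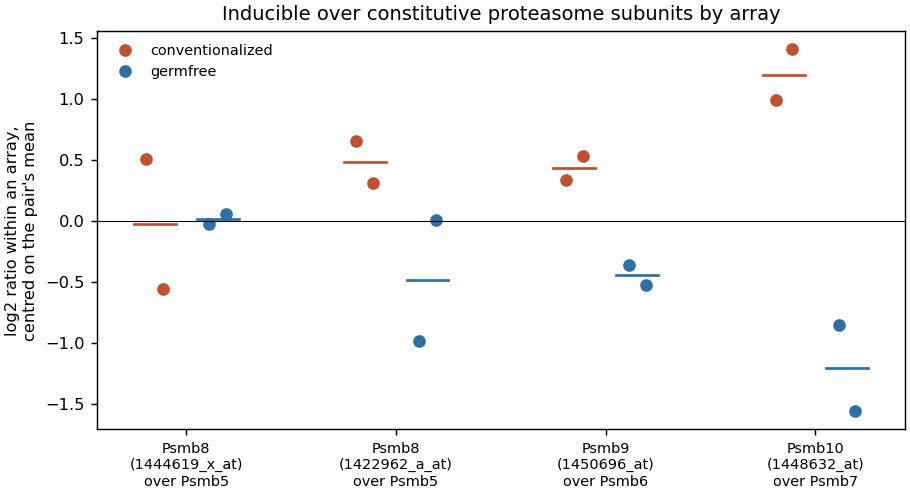
Log2 ratio of an inducible to its constitutive proteasome subunit on each array, centred on the mean of that ratio over 4 arrays, for conventionalized (left) and germ-free (right) arrays, with group means as bars. The groups separate for Psmb9 over Psmb6 and Psmb10 over Psmb7, and for Psmb8 over Psmb5 at 1 of the 2 Psmb8 probe sets; Psmb7 lay under the signal filter on both conventionalized arrays.

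Most other proteasome genes also lay above 0, and none was called. Of 11 other subunits of the 20S core, 10 had a difference above 0 and 0 passed the limma test (1 at an unadjusted p under 0.05), with a median of 0.25 (0.10 and 0.64 with germ-free replicate 1 or 2 left out, 0.52 without conventionalized replicate 2). Examples were the bright Psma6, at 18651 and 13866 in conventionalized cells and 9505 and 14993 in germ-free cells (0.43 ± 0.63), Psma5 (0.77 ± 0.52) and Psmb4 (0.077 ± 0.51). Of 25 activator, assembly factor and 19S genes tested, 20 lay above 0, 13 without overlap between the groups, beside 15.9% of all genes, and 0 passed the limma test (0 at an unadjusted p under 0.05 too), around a median of 0.32 (0.13 without conventionalized replicate 1, and 0.14 and 0.53 with germ-free replicate 1 or 2 left out). Psmc2 (0.22 ± 0.61), Psmd6 (-0.10 ± 0.47) and Psmc4 (0.20 ± 0.45), ATPase and lid subunits of the 19S cap, were the brightest. Psmd7, among those without overlap, had a germ-free mean of 81.8, under the signal filter. Psmd7 passed the filter only through its conventionalized mean of 166.35, so its value supports nothing. Psme1, a subunit of the PA28 activator that is known to rise with interferon, read 772 and 832 in conventionalized cells, against 574 and 714 in germ-free cells (0.31 ± 0.43). Its partner Psme2 shares a probe set with Psme2b, which read 3649 and 2539 in conventionalized cells and 1439 and 2341 in germ-free cells, a log2 difference of 0.72 ± 0.43 (limma adjusted p = 0.999).

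Transport into the endoplasmic reticulum rests on Tap1 and Tap2, the 2 chains of the peptide pump. Tap1 (21354) read 496.5 and 583 at its brightest probe set in conventionalized cells, against 212.5 and 299.8 in germ-free cells. The groups were apart, and the difference was 1.00 ± 0.50, or 2.00-fold. It did not pass the limma test, with an adjusted p of 0.946 and an unadjusted limma p of 0.0434. The further probe sets were dimmer and overlapped between the groups: the next read 158 and 223 in conventionalized cells and 290.1 and 158 in germ-free cells (-0.17 ± 0.63), and another read 176.5 and 102 in conventionalized cells and 107 and 74.3 in germ-free cells (0.46 ± 1.01). The probe set at 0.46 had a germ-free mean of 90.6, under the signal filter. It passed the filter only through its conventionalized mean of 139.45, so its value supports nothing. The dimmest probe set of Tap1, at 9.8 and 25.8 in conventionalized cells and 8.6 and 3.8 in germ-free cells, lay under the signal filter. Tap2 (21355) had a single probe set and was not tested, since its signals of 25.9 and 16.6 in conventionalized cells and 26.6 and 133.7 in germ-free cells fell under the filter. The pump was thus followed through 1 of its chains only.

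In the RefSeq gene table, Psmb9, Tap1, Psmb8 and Tap2 stand side by side on chromosome 17 among the class II genes, between H2-DMb1 and H2-Ob, and Psmb9 and Tap1 run in opposite directions from neighbouring starts. The windows of 250 bases before to 50 after each start overlap by 275 bases, with 225 bases between the starts. The window of Tap1, in the RefSeq sequence of GRCm38.p6, is shown because the same bases, read on the other strand, hold the start of Psmb9. Capitals mark TGACG, the core of the cyclic AMP response element, on either strand.
Tap1 (chr17:34187306-34187605, plus strand): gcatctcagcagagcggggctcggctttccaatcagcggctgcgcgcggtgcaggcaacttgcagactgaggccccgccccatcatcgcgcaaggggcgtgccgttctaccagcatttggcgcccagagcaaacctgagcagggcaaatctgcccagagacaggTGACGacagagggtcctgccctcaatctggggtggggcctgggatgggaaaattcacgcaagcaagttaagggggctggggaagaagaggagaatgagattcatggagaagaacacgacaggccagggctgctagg
In Psmb9 and Tap1 the TGACG is the same bases read from either side. TGACG stood in the windows of 5 of the 8 members that have one in the RefSeq table (Tap1, Psmb9, H2-K1, H2-D1 and B2m), and in 21.0% of all 27025 such windows. The NMRI genome may differ from this C57BL/6J reference.

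Tapbp (21356), or tapasin, which holds empty class I molecules at the pump, gave values that overlapped. It read 1034 and 731 in conventionalized cells and 994 and 889.8 in germ-free cells, so that the conventionalized values enclosed the germ-free ones, and the difference was -0.11 ± 0.42 (0.13 without conventionalized replicate 2). Its other probe set was near the bottom of the scale, between 5.6 and 13.6 on all arrays, and was not tested. Of 16 further genes of peptide loading and trimming, 10 lay above 0 and 0 passed the limma test (0 at an unadjusted p under 0.05 too), around a median of 0.10 that was -0.19 without conventionalized replicate 1 and -0.30 without germ-free replicate 1. Among the brightest were Sec61a1, the channel of the endoplasmic reticulum (0.60 ± 0.59), Hspa5, its main chaperone (0.23 ± 0.50), and Canx, or calnexin, which holds new heavy chains (-0.35 ± 0.49).

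No probe set of the class I molecule itself was called, and the brightest ones of its 3 chains had differences below 0. B2m (12010), the light chain of every class I molecule, gave 9451 and 11237 in conventionalized cells, against 8515 and 12643 in germ-free cells. The conventionalized values lay inside the germ-free range, and the difference was -0.0099 ± 0.58 at this probe set, with 0.11 without conventionalized replicate 1 and 0.27 without germ-free replicate 2. The dimmer probe set read 1574 and 2738.5 in conventionalized cells and 1421 and 2005.5 in germ-free cells (0.29 ± 0.42, and -0.099 without conventionalized replicate 2). A standard error of this size leaves room for a change as large as that of the proteasome subunits, so the values do not show that B2m stayed level.

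H2-K1 (14972), a classical heavy chain, had 4 tested probe sets. The brightest read 1318 and 2394 in conventionalized cells, against 2119 and 2943 in germ-free cells, a log2 difference of -0.48 ± 0.42 (limma adjusted p = 0.999). Its size rested on single arrays: it was -0.060 and -0.91 with conventionalized replicate 1 or 2 left out, and -0.72 and -0.25 with germ-free replicate 1 or 2 left out. The next read 1931 and 2469 in conventionalized cells and 1351 and 2658 in germ-free cells (0.20 ± 0.42), so the 2 brightest probe sets of the gene disagreed in sign and both overlapped between the groups. The third differed by 0.022 ± 0.44 and the dimmest, with one conventionalized array at 21.2 and the other at 149.4, by -1.05 ± 1.02. The conventionalized mean of the dimmest, 85.3, lay under the signal filter. This probe set passed the filter only through its germ-free mean of 171.05, so its value supports nothing.

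H2-D1 (14964), the other classical heavy chain measured here, had 9 probe sets, of which 5 were tested. Its brightest read 1426.5 and 1337 in conventionalized cells, against 1447 and 2191 in germ-free cells. The nearest values of the 2 groups, 1426.5 and 1447, almost touched, and the difference was -0.36 ± 0.42 (limma adjusted p = 0.999). It was -0.65 and -0.066 with germ-free replicate 1 or 2 left out. The next 2 differed by -0.22 ± 0.42 and -0.58 ± 0.43, and the dimmest 2 tested by -0.20 ± 0.90 and 0.81 ± 0.94. The one at 0.81 had a germ-free mean of 90.15, under the signal filter. It passed the filter only through its conventionalized mean of 208.2, so its value supports nothing. The other 4 probe sets of H2-D1 lay between 6.5 and 165 and were not tested. Probe sets shared with a relative add 3 values. The one naming H2-K1 and H2-D1 read 144 and 276.5 in conventionalized cells and 194 and 198 in germ-free cells (0.032 ± 0.64), and the one naming H2-Q5 and H2-K1 differed by 0.091 ± 0.61. The third, naming Gm38417, H2-Q2 and H2-D1, was untested for its low mean, at 209.7 and 128.2 in conventionalized cells and 31.5 and 7.9 in germ-free cells. Of the 13 probe sets of H2-K1 and H2-D1, 11 carry the suffix _x_at, which marks probes that can bind related transcripts, and class I genes vary between mouse strains, so their levels may stand for mixtures of heavy chains. The sources used here do not name the class I alleles of these mice.

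**Figure D3:**
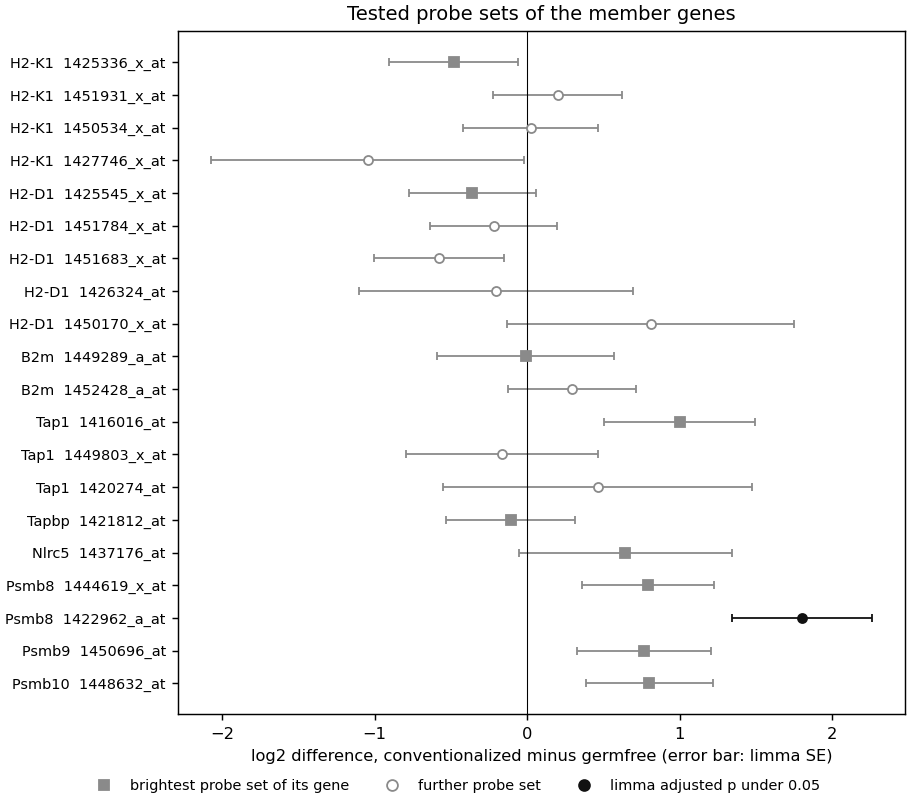
Log2 difference (conventionalized minus germ-free) with its limma standard error for the 20 tested probe sets of the member genes, squares for the brightest of each gene and circles for the others. The single black point is the Psmb8 probe set at 1.80, and the 4 H2-K1 and 5 H2-D1 probe sets spread from -1.05 to 0.81 on both sides of 0. The probe sets at both ends of this spread passed the signal filter through the mean of a single group, as did that of Tap1 at 0.46. The other H2-K1 and H2-D1 probe sets ran from -0.58 to 0.20.

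Further heavy chains gave no clearer picture. Of 29 listed, 13 had a probe set of their own and 10 were tested: 4 lay above 0, 6 below, and 0 passed the limma test (1 at an unadjusted p under 0.05), with a median of -0.21 that was 0.11 without conventionalized replicate 1. The brightest were H2-T3, the thymus leukaemia antigen carried by intestinal epithelium, at 7219 and 7080.3 in conventionalized cells and 6418 and 14180.2 in germ-free cells (-0.41 ± 0.54), and H2-Q2, at 2889 and 3026 in conventionalized cells and 4022 and 6500.4 in germ-free cells (-0.78 ± 0.46). H2-Bl, the next in signal, differed by -0.87 ± 0.42 with an unadjusted limma p of 0.0384 and an adjusted p of 0.921.

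The start windows of H2-K1, H2-D1 and B2m, again RefSeq sequence of GRCm38.p6, are set out because these are the chains of the class I molecule itself. Capitals mark 3 motifs searched on both strands: GGATTCC, the core of the NF-kB site in the class I enhancer, AANNGAAA, the core bound by interferon regulatory factors, and TGACG. The letters searched were settled after these windows had been seen.
H2-K1 (chr17:34000298-34000597, minus strand): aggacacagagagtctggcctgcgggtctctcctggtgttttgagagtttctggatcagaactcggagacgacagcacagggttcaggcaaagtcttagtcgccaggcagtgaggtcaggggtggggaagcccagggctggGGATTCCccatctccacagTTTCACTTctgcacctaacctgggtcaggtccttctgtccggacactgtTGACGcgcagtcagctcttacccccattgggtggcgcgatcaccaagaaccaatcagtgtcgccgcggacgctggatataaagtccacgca
H2-D1 (chr17:35262844-35263143, plus strand): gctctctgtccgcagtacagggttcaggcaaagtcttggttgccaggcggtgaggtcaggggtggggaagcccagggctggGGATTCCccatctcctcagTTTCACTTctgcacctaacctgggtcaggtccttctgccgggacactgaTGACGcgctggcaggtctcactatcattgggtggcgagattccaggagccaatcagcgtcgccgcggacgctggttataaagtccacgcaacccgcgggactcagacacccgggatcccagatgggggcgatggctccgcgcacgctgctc
B2m (chr2:122147437-122147736, plus strand): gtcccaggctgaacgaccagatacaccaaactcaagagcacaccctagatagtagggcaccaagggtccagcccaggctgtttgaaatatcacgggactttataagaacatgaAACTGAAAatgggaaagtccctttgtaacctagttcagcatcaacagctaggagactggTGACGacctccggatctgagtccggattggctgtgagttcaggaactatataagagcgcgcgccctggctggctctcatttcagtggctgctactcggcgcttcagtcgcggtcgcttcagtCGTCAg
H2-K1 and H2-D1 held the 3 motifs in the same order. GGATTCC stood in 2 members, H2-K1 and H2-D1, and in 3.86% of all windows. AANNGAAA stood in 3 members, H2-K1, H2-D1 and B2m, and in 24.2% of all windows. A further motif, TTCNNNGAA, the STAT site, stood in 1 member, Psmb8, and in 8.47% of all. Neither AANNGAAA nor GGATTCC stood in the windows of Tap1, Psmb8, Psmb9, Psmb10 or Tapbp, which says only that these letters are not within these 300 bases.

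Nlrc5 (434341), the transactivator of the class I genes, was dim, with 213 and 234 in conventionalized cells, against 158 and 108 in germ-free cells. Both conventionalized arrays were higher, by a log2 of 0.64 ± 0.70 (limma adjusted p = 0.999), a difference smaller than its standard error. Among 22 tested genes of interferon signalling and class I promoter factors, 15 lay above 0 and 0 passed the limma test (1 at an unadjusted p under 0.05), with a median of 0.19. Irf1, an interferon-induced activator of class I genes, read 1545 and 1205 in conventionalized cells and 692.5 and 1353 in germ-free cells (0.48 ± 0.42). Rfx5, a factor that recruits Nlrc5 to the promoter, differed by 0.059 ± 0.49, Jak2, a kinase of the interferon-gamma receptor, by -0.51 ± 0.42, and Socs3, an inhibitor of cytokine signalling, by 0.70 ± 0.42. Of 7 interferon and related cytokine genes with a probe set, 4 were tested and 0 passed the limma test (0 at an unadjusted p under 0.05 too), and Ifng lay at 3.6 and 15.6 in conventionalized cells and 36.9 and 20.9 in germ-free cells, under the filter; it is named after its values were seen.

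Interferon-induced genes outside the pathway were set beside the members. Of 18 tested antiviral genes and GTPases, 15 lay above 0, 10 without overlap between the groups, beside 15.9% of all genes, with a median of 0.48, and 1 rose: Ifit1, an RNA-binding antiviral protein, at 1055.5 and 1340.3 in conventionalized cells and 203.5 and 209 in germ-free cells (limma adjusted p = 4.0e-04). Without conventionalized replicate 2, and in limma without a variance trend, 0 of the list were called. Oas1a, which senses double-stranded RNA, differed by 1.35 ± 0.42 and Ifi35 by 0.20 ± 0.53, and neither passed. Ifit3 and Usp18, among those without overlap, and Xaf1 had germ-free means of 108.5, 87.65 and 106.3, under the signal filter. They passed the filter only through conventionalized means of 358.15, 269.95 and 278.4, so their values support nothing. The same holds for Gbp2, below 0, with a conventionalized mean of 110.2 and a germ-free mean of 190.05. Of 10 class II genes tested, 8 lay above 0 and 0 passed the limma test at the brightest probe set (3 at an unadjusted p under 0.05), with a median of 0.79 (0.46 without conventionalized replicate 2). H2-Ea and H2-DMb2, both above 0, had germ-free means of 52.2 and 84.5, under the signal filter. They passed the filter only through conventionalized means of 221.3 and 257.2, so their values support nothing. H2-Aa, a class II alpha chain, read 4133 and 5907 in conventionalized cells, against 1789.7 and 1544 in germ-free cells (1.55 ± 0.44, limma adjusted p = 0.0784), and another probe set of that gene was called, while Ctss (-0.25 ± 0.52) and Ifi30 (-0.34 ± 0.42), enzymes of the class II compartment, did not pass.

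**Figure D4:**
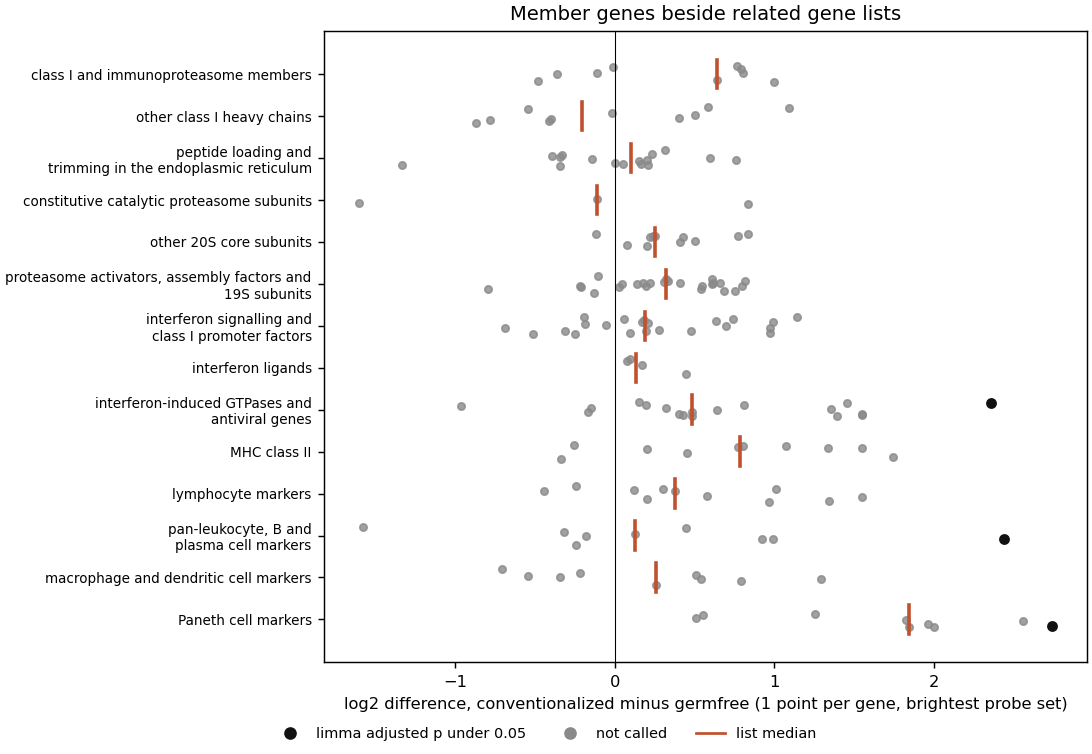
Log2 difference (conventionalized minus germ-free) of each tested gene at its brightest probe set, 1 row per gene list, with the list median as a bar and called genes in black. The enterocyte, goblet cell and endothelial, stromal and smooth muscle lists are not drawn. The members fall into 4 genes below 0 and 5 from 0.64 to 1.00. The lists of proteasome genes centre at -0.11 (constitutive catalytic subunits), 0.25 and 0.32, and other heavy chains centre at -0.21.

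Leukocytes express class I and immunoproteasome genes strongly, so their markers are given beside these values. Of 24 lymphocyte markers listed, 20 had a probe set, 11 were tested and 9 lay above 0, with a median of 0.38 (0.17 without conventionalized replicate 2), 0 called by limma and 1 at an unadjusted p under 0.05. Their summed signal was 3064 and 4742 on the conventionalized arrays, against 3055 and 1835 on the germ-free arrays. Gzma, a granzyme of cytotoxic lymphocytes, read 423 and 766 in conventionalized cells and 244 and 172 in germ-free cells (1.34 ± 0.51), Cd8a read 309 and 536 in conventionalized cells and 289 and 117 in germ-free cells (1.01 ± 0.54), and Zap70, a T cell receptor kinase, differed by 0.58 ± 0.45. Ccr9 and Cd247, both above 0, had germ-free means of 66.45 and 84.3, under the signal filter. They passed the filter only through conventionalized means of 213.45 and 190.1, so their values support nothing. The T cell receptor complex chains Cd3d and Cd3e stayed at or under 42.1 on all arrays, and Cd3g read 47.1 and 173.0 in conventionalized cells and 6.0 and 49.8 in germ-free cells. The means of these chains lay under the signal filter, so their signals show neither presence nor absence of lymphocytes. Of 9 pan-leukocyte, B and plasma cell markers tested, 5 lay above 0 and 4 below, with a median of 0.13 (-0.086 without germ-free replicate 2, 0.29 without conventionalized replicate 2 and 0.34 without germ-free replicate 1), and 3 had an unadjusted limma p under 0.05. In this list 1 gene rose, Igha, the constant region of immunoglobulin A, at 6273 and 7988 in conventionalized cells and 994 and 1644 in germ-free cells (limma adjusted p = 5.55e-05), although 0 of the list were called with median centring or without a variance trend. With conventionalized replicate 2 or germ-free replicate 1 left out, 2 of the list were called. Laptm5, a lysosomal protein of blood cells, differed by 0.99 ± 0.43 with overlapping groups. Jchain, which joins immunoglobulin A units, differed by 0.93 ± 0.44, and Sdc1, a plasma cell and epithelial surface protein, by -0.18 ± 0.42. Ms4a1, or CD20 of B cells, read 154.3 and 9.2 in conventionalized cells and 300.3 and 174.6 in germ-free cells (-1.58 ± 0.94). Its conventionalized mean of 81.75 lay under the signal filter. Ms4a1 passed the filter only through its germ-free mean of 237.45, so its value supports nothing. Ptprc, or CD45, carried by all leukocytes, read 262 and 216 in conventionalized cells and 327 and 283 in germ-free cells. This list summed to 14614 and 12469 on the conventionalized arrays and 6707 and 6078 on the germ-free arrays.

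Of 9 macrophage and dendritic cell markers tested, 5 lay above 0 and 0 passed the limma test (1 at an unadjusted p under 0.05), with a median of 0.26 that was -0.043 and -0.038 with conventionalized replicate 1 or 2 left out and -0.062 without germ-free replicate 2. Their sum, 20764 and 19120 on the conventionalized arrays and 9794 and 10599.5 on the germ-free arrays, was mostly Lyz2 (1.30 ± 0.57), a close paralog of the Paneth cell lysozyme Lyz1. Csf1r (0.26 ± 0.42) and C1qb (-0.34 ± 0.48) did not pass. Of 9 Paneth markers tested all 9 lay above 0, with a median of 1.85 and 1 called, Mptx1 (5 without germ-free replicate 2). Enterocyte markers had a median of -0.51 (-0.11 without conventionalized replicate 1 and -0.12 without germ-free replicate 2), and Apoc3 fell, a call lost without either of those arrays. Of 10 goblet cell markers tested, 8 lay above 0, 6 of them without overlap between the groups, beside 15.9% of all genes. The median of the 10 was 0.74 (1.25 without germ-free replicate 2). Clca1 lay below 0 without overlap, at 850 and 1438 in conventionalized cells and 2223 and 3424 in germ-free cells (-1.29 ± 0.42). Retnlb, a secreted antibacterial protein of goblet cells, rose, at 23136 and 21317 in conventionalized cells and 1426 and 2526 in germ-free cells, 11.5-fold (limma adjusted p = 2.32e-08). Of 13 endothelial, stromal and smooth muscle markers tested, 10 lay below 0, 5 without overlap, beside 16.1% of all genes. Of the 13, 0 passed the limma test and 1 had an unadjusted p under 0.05. The median was -0.32 (-0.11 without germ-free replicate 1, and -0.50, -0.50 and -0.53 without each of the other arrays). Kdr, among those without overlap, read 30.8 and 38.9 in conventionalized cells and 207.1 and 197.2 in germ-free cells. Its conventionalized mean of 34.85 lay under the signal filter, as did that of Cdh5, at 91.55. Kdr and Cdh5 passed the filter only through germ-free means of 202.15 and 146.5, so their values support nothing. The summed signal of this list was 4835 and 6074 on the conventionalized arrays and 8296 and 7355 on the germ-free arrays. The part of any of these in the class I and immunoproteasome values was not tested.

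The genes whose pattern over the 4 arrays was most like the median pattern of the 9 members were Coq8a, Gabarapl1, Clca3a1, Emc6 and Rps9, by Euclidean distance of log2 values centred on each gene's mean. The distances ran from 0.021 for Coq8a to 0.073 for Rps9. Coq8a read 675 and 636 in conventionalized cells and 455 and 493 in germ-free cells, and its difference of 0.44 ± 0.45 did not pass. With 4 arrays and 12111 genes compared, closeness of this kind is a description only.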

How the data were processed

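The table deposited by the authors gives a linear intensity for every probe set of the 4 arrays. Trimmed by 2% at each end, its mean was 250 on each array, and no further scaling was applied. How the authors derived it is not given in the sources used here. Scanner parameter files (other values, per the file headers) were read for batches only: the arrays shared 1 lot, 1 scanner and 1 scan day.

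The test was limma (version 3.58.1, R 4.3.3; lmFit and eBayes, variance trend on) on log2(intensity + 32) of 22491 probe sets with a mean above 113.9, controls left out, with calls made at 0.05 after Benjamini-Hochberg adjustment. The prior degrees of freedom were infinite beside 2 residual ones, so standard errors are those of probe sets of like signal. The number of arrays limits the precision. A probe set can pass the signal filter through the mean of a single group, and its direction is then partly set by the filter. Besides the genes named for this in the results, H2-M3, Tapbpl, Ciita and Rbp2 passed through their conventionalized mean alone. Cx3cr1 passed through its germ-free mean alone. All of these stay in the counts and medians of their lists.

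Gene names came from the platform annotation, 34958 probe sets naming 1 gene, 932 several and 9211 none; 34754 identifiers were found in the RefSeq table of GRCm38.p6, where start windows were taken for 8 of 10 members. Members and lists were chosen with earlier results of these data known. The text names all members, the constitutive subunits, Psme1, Psme2, Irf1 and Rfx5 whatever their values, up to 3 further genes per list (called ones with the largest difference, otherwise the brightest) and the 5 nearest profiles. Others (Cd3d, Cd3e, Cd3g, Ptprc, Jchain, Ms4a1, Ifng, Ifit3, Usp18, Xaf1, Gbp2, Psmd7, H2-Ea, H2-DMb2, Ccr9, Cd247, H2-M3, Tapbpl, Ciita, Rbp2, Cx3cr1, Clca1, Kdr, Cdh5) were chosen after their values were seen. Alternatives were a smaller and a larger pseudocount, other filters and normalizations, the median over a gene's probe sets, the aliquot number as a block, no variance trend, and leaving out each array.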

Additional observations from a re-analysis of the deposited data

How the results depend on the processing

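At the brightest probe set, 104 of 107 member values under the alternatives kept their sign and 0 were called; the 3 others were B2m and Tapbp with 1 array left out. Further member probe sets kept their sign in 116 of 127 values. Another filter, the replicate block and no variance trend leave the difference of a probe set unchanged in this design. Their values could not change sign in either count. Member calls numbered 1 with a smaller or larger pseudocount, without a filter and in the brightest 25% of probe sets, and 0 with quantile normalization, median centring, the aliquot number as a replicate block, and no variance trend. Over all probe sets the counts were 75 in the reported fit and 33 (14 higher, 19 lower), 27 (6 and 21), 30 (13 and 17) and 0 in those 4, beside 975 with an unadjusted limma p under 0.05 without the trend; the called Psmb8 probe set had limma adjusted p-values from 0.00278 to 1 over the 12 alternatives. The reported split was 27 higher and 48 lower. Same-numbered arrays deviated with a correlation of -0.13, and aliquot numbers are not stated to mark a shared batch; pairing them crossed, an alternative chosen after seeing the data, gave 228 calls, 1 of them a member. Leaving out 1 array gave 41 to 213 calls in all (213 without conventionalized replicate 1) and 0 to 1 among the members. The member median of 0.64 was 0.32 without a filter, where Tap2 entered; its other values ran from 0.38 to 0.73. With median centring H2-K1's next to dimmest probe set came to -0.017. With 1 array left out, ranges that crossed 0 were -0.28 to 0.68 (second of H2-K1 by brightness), -0.45 to 0.50 (next to dimmest of H2-K1), -0.66 to 0.22 (second of H2-D1), -1.13 to 0.72 (next to dimmest tested of H2-D1), -0.079 to 1.70 (dimmest tested of H2-D1), -0.29 to 0.27 (brightest of B2m), -0.099 to 0.69 (second of B2m), -0.55 to 0.21 (second of Tap1) and -0.35 to 0.13 (Tapbp). The cause was not tested.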
